A study of Mus musculus with 2 samples.

Results

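Expression of 10 genes that build the lipid and protein barrier of the epidermis was followed in the incisor of wild-type and *Sox21* KO mice. The genes were taken by name from the probes of the array that are not controls, with no threshold on their values but with earlier results of these data known, and 13 of the 55679 probes belonged to them, so the 10 genes are a small part of the 21243 genes with a probe. They comprised the transglutaminases *Tgm1*, *Tgm3* and *Tgm5*, the epidermal lipoxygenases *Alox12b* and *Aloxe3*, the barrier lipid genes *Elovl4*, *Abca12* and *Ugcg*, and the filaggrin proteases *Casp14* and *Asprv1*. Total RNA of the incisor was labelled with Cy3 and hybridized to Agilent SurePrint G3 Mouse GE arrays, with 1 array for wild-type and 1 for *Sox21* KO. The labels give the age of the mice as postnatal day 0, whereas the methods give day 1. The wild-type strain was C57BL/6J in the methods. The labels speak of the incisor, while the design text speaks of ameloblasts, the enamel-forming epithelial cells, and of whole tooth germs. The number of animals behind each array and any pooling are not given in the sources used here.

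In the outermost skin, dying keratinocytes replace their membrane by a crosslinked protein shell, the cornified envelope, which carries a coat of covalently bound ceramides. Transglutaminases crosslink the envelope proteins. Ceramides with very long acyl chains are made, glucosylated, loaded into lamellar bodies and secreted, and lipoxygenases oxidize their linoleate so that they can be bound to the envelope. In parallel, proteases break filaggrin down to amino acids that hold water in the stratum corneum. Teeth form no stratum corneum, although the oral mucosa that covers them keratinizes.

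*Asprv1* and *Aloxe3* were the barrier genes with the widest differences between the arrays, and both lay 2-fold or more higher in *Sox21* KO, although *Aloxe3* fell below 2-fold with the percentile taken without control spots and both did with another background correction. The measured probes of the other 6 measured genes differed by less than 1.5-fold, in either direction. *Tgm5* and *Abca12* were too dim to be measured on either array. With 1 array for each genotype there is no replicate to check a difference against and no test, and precision is limited by the number of arrays. A lower level can stand for fewer cells of a type or for less RNA per cell, and these cannot be told apart in bulk tissue.

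The segments below are the first 30 bases of the 60-base probes, read from the array files, for the 2 genes that differed most, for *Alox12b*, the partner of *Aloxe3* whose probes gave unequal log2 ratios, and for *Tgm3*, of which only 1 of 2 probes was measured. Each is written 5′ to 3′ with the mm9 position and strand of the whole probe as the files give it, and no base is capitalized. No gene model of mm9 was used here, so the exon that each probe lies in is not given.
Aloxe3, chr11:68962557-68962616, plus strand: catcctattgtctgtctttgagcccagtga
Asprv1, chr6:86579351-86579410, plus strand: ttggtggcctaaagcagtgtccccaaggtc
Alox12b brighter probe, chr11:68979536-68979770, plus strand: atgtgccaccctctgtataagcttctcatc
Alox12b dimmer probe, chr11:68983186-68983245, plus strand: tacctggacccagtgctgattgagaacagt
Tgm3 measured probe, chr2:129876035-129876094, plus strand: aagtcatccttgccttccttcctttccttc
Tgm3 other probe, chr2:129874069-129874128, plus strand: tcgctgacttttcctgcaataaattcccta
The position given for the brighter *Alox12b* probe spans 235 bases, more than its 60 bases. The positions of the *Alox12b* and *Tgm3* probes show that the 2 probes of each gene lie apart.

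The scanner software removed background within each array and wrote a processed signal for every spot, and here each signal was divided by its array's 75th percentile, 268 signal units for wild-type and 276 for *Sox21* KO. The result is called the normalized signal, and the log2 ratio is that of *Sox21* KO minus wild-type. Errors are those that the scanner software gives for the signal of the spot, and they leave out the spread between animals. A gene is called measured if the software marked a probe of it as well above background on each of the 2 arrays, and 13804 genes with a median log2 ratio of 0.013 met this. The mark was given to 49.7% of non-control spots in wild-type and 50.4% in *Sox21* KO. On the 268 probes with repeat spots, the log2 ratio varied between the spots with a median SD of 0.0854. *Sox21*, the deleted gene, had signals of 1362 in wild-type and 659 in *Sox21* KO on its brighter probe, and of 286 and 103 on the other, so the library labelled KO was lower on both. Whether these probes lie in the deleted stretch is not given in the sources used here.

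Among the transglutaminases, *Tgm3* crosslinks envelope proteins in the cytosol of skin, hair follicle and mucosa. Its measured probe gave a signal of 951 ± 95.2 (scanner error) in wild-type and 932 ± 93.3 in *Sox21* KO. The difference was smaller than either error, with a log2 ratio of −0.071 ± 0.20, and it turned to a small positive value of 0.025 under another array scaling. The other *Tgm3* probe did not rise well above background in either genotype, at 8.29 and 5.14 signal units. *Tgm3* thus rests on 1 of its 2 probes.

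*Tgm1* encodes the membrane-bound transglutaminase that attaches ceramides and proteins at the cell periphery. Its signal was 186 ± 19.5 in wild-type and 232 ± 23.8 in *Sox21* KO. The *Sox21* KO value was the higher, with a log2 ratio of 0.28 ± 0.21, and the ratio stayed between 0.19 and 0.37 over the settings tried. *Tgm5*, a transglutaminase of the upper epidermis, had 7.24 signal units in wild-type and 4.72 in *Sox21* KO, below the lowest signals that the software marked as well above background, 21.3 and 19.5. It was given no ratio.

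The 2 epidermal lipoxygenases act in sequence on the linoleate of acylceramides, and their genes lie next to each other on mouse chromosome 11, followed by *Alox8*. *Aloxe3* encodes the second enzyme, which converts the hydroperoxide made by the first. Its signal was 27.7 ± 5.85 in wild-type and 57.1 ± 7.42 in *Sox21* KO. The *Sox21* KO array was 2.004-fold higher, with a log2 ratio of 1.003 ± 0.36, and 99.3% of measured genes had a smaller log2 ratio. The wild-type signal was close to the lowest one marked as well above background, and the mean intensity of the spot before background removal was 71.8 in wild-type and 95.8 in *Sox21* KO against local backgrounds of 24 and 20. With a normal-exponential background correction, which adds 50 units before the log, the log2 ratio of *Aloxe3* was 0.31, and with the percentile taken over spots other than controls it was 0.99. *Aloxe3* therefore lay at the 2-fold threshold and fell below it under 2 of the 5 other array settings.

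*Alox12b*, whose product carries out the first oxidation, did not follow its neighbour. The brighter probe gave 68.5 ± 8.72 in wild-type and 66.0 ± 8.31 in *Sox21* KO. The dimmer probe gave 37.5 ± 6.74 and 29.4 ± 5.76. Both probes were lower in *Sox21* KO, with log2 ratios of −0.095 ± 0.26 and −0.39 ± 0.38. The ratio of the brighter probe was within its scanner error and reached 0.0013 under another scaling, whereas that of the dimmer probe stayed below 0, between −0.41 and −0.12. The difference between the ratios of *Aloxe3* and *Alox12b* was not tested.

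Among the barrier lipid genes, *Elovl4* encodes the elongase that makes the very long acyl chains of epidermal ceramides. Its brighter probe (chr9:83673253-83673312, minus strand) gave 284 ± 28.8 in wild-type and 337 ± 34.0 in *Sox21* KO. Its dimmer probe (chr9:83672645-83672704, minus strand) gave 121 ± 13.1 and 136 ± 14.3. Both were slightly higher in *Sox21* KO, with log2 ratios of 0.21 ± 0.21 and 0.12 ± 0.22. Neither ratio exceeded its scanner error.

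*Ugcg*, which encodes the synthase that glucosylates ceramides, was measured at chr4:59235333-59235392 on the plus strand. Its signal was 207 ± 21.6 in wild-type and 215 ± 22.2 in *Sox21* KO. The levels were nearly alike, with a log2 ratio of 0.012 ± 0.21, whose sign turned under another scaling. *Abca12*, the transporter that loads glucosylceramides into lamellar bodies, gave 4.68 and 4.29 signal units at chr1:71289874-71289933 on the minus strand. It did not rise well above background in either genotype, so neither a level nor a difference could be measured.

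The 2 proteases of filaggrin processing went in opposite directions. *Asprv1* encodes the retroviral-like aspartic protease of the upper epidermis that cuts the profilaggrin linker. Its signal was 78.2 ± 8.97 in wild-type and 186 ± 19.1 in *Sox21* KO. The *Sox21* KO array was 2.31-fold higher, with a log2 ratio of 1.21 ± 0.22, and 99.6% of measured genes had a smaller log2 ratio. The ratio was positive under every array setting tried, between 0.77 and 1.31, and only the normal-exponential correction brought it below 2-fold.

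*Casp14*, a caspase of cornifying keratinocytes that takes part in filaggrin breakdown, gave 149 ± 16.0 in wild-type and 130 ± 14.0 in *Sox21* KO (chr10:78174761-78174820, minus strand). It was lower in *Sox21* KO, with a log2 ratio of −0.25 ± 0.22. The ratio stayed between −0.26 and −0.15 over the array settings tried, and 14.0% of measured genes had a smaller one.

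**Figure D1:**
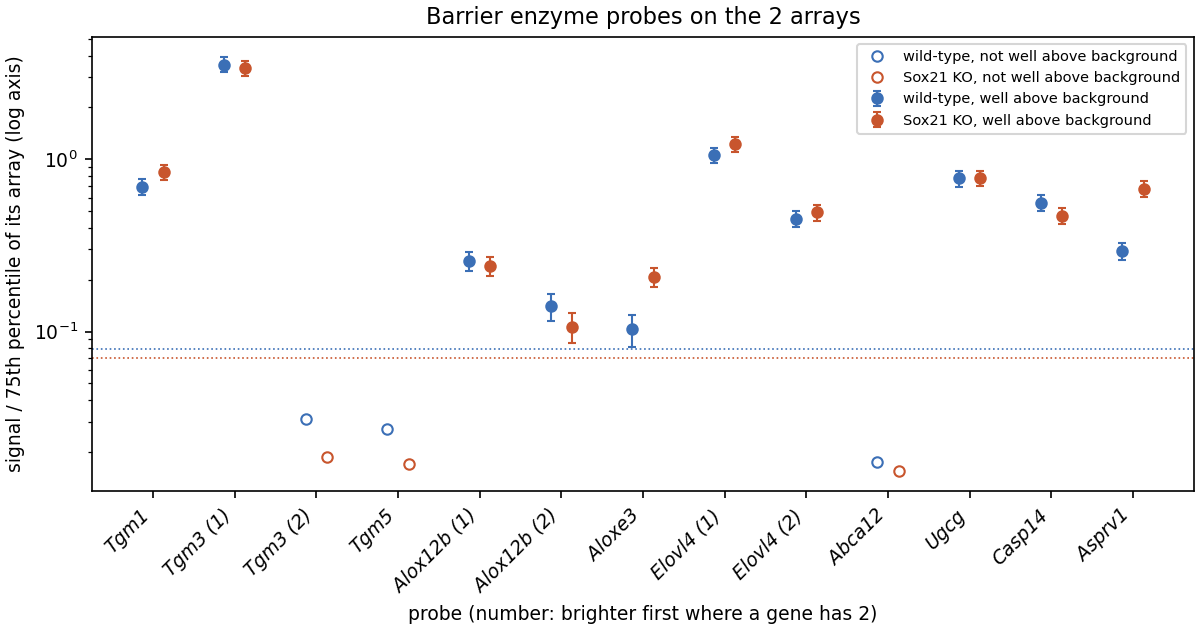
Normalized signal (signal divided by its array's 75th percentile, log axis) of the 13 probes, with the wild-type array in blue and the *Sox21* KO array in orange. Bars are the scanner error of the spot, open circles are not well above background, and dotted lines give the lowest normalized signal marked as well above background on each array. The wild-type and *Sox21* KO bars are clearly apart for *Aloxe3* and *Asprv1*, and the open circles of *Tgm5*, *Abca12* and the other *Tgm3* probe lie below the lines.

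Of the 8 measured barrier genes, 5 were higher and 3 lower in *Sox21* KO. Over all measured genes 52.4% were higher, so this count says little about the barrier genes. Dividing by the 50th percentile of the array instead gave 7 higher and 1 lower, with 69.3% of all genes higher, and the 75th percentile without control spots gave 4 and 4. At least 2-fold higher were 2 of the 8, beside 0.739% of all measured genes, and 0 of the 8 were at least 2-fold lower, beside 0.666%. The count at least 2-fold higher was 1 with the percentile taken without control spots and 0 with the normal-exponential correction, under which 46 of the 13804 genes passed. The share at least 2-fold higher varied with brightness and was 1.13% among the 7806 genes between the dimmest and the brightest measured barrier gene and 1.63% among the 2768 genes no brighter than *Asprv1*. The 8 genes had a median log2 ratio of 0.11, and the 6 genes other than *Aloxe3* and *Asprv1* lay between −0.25 and 0.28 with a median of −0.030.

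**Figure D2:**
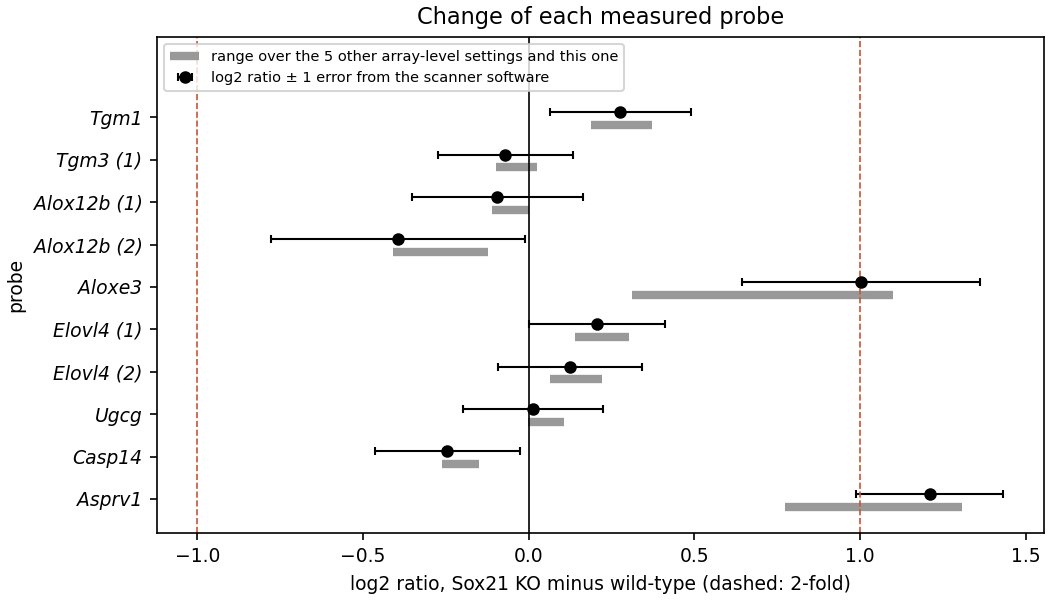
Log2 ratio, *Sox21* KO minus wild-type, of the 10 probes measured on both arrays. Points carry the scanner error of the ratio, grey bars span the values over 6 ways of processing the arrays, and dashed lines mark 2-fold. *Asprv1* and *Aloxe3* reach 1.21 and 1.003, the grey bar of *Aloxe3* reaches down to 0.31, and the points of the other 8 probes lie between −0.39 and 0.28.

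Other genes of the barrier were set beside these enzymes by 6 lists with 81 genes in all. Of the 49 that were measured, 36 were higher and 13 lower in *Sox21* KO, 5 were at least 2-fold higher and 0 at least 2-fold lower, and the median log2 ratio was 0.11. Over all measured genes these shares were 52.4% higher, 0.739% at least 2-fold higher and 0.666% at least 2-fold lower. With the 50th percentile as the divisor 40 were higher and 9 lower, beside 69.3% of all genes higher. The 5 were 3 with the normal-exponential correction, and without the filter on dim probes 13 were at least 2-fold higher and 1 lower. A further 7 were well above background on the *Sox21* KO array alone and 1 on the wild-type array alone, beside 449 and 274 of all 21243 genes. The remaining 24 were measured on neither.

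Among transglutaminase substrates and other proteins of the cornified envelope, 4 genes measured on both arrays stood 2-fold or more higher in *Sox21* KO, beside 0.739% of all measured genes. The count was 2 with the normal-exponential correction. Of the 20 genes of this list, 12 were measured, with a median log2 ratio of 0.75 (0.60 with that correction). Under each scaling tried 11 of the 12 were higher in *Sox21* KO, beside 49.6% to 69.3% of all measured genes. *Sprr3*, a small proline-rich envelope precursor of stratified mucosa, stood highest of the 12 at 1.59. *Krtdap*, a secreted protein of differentiating keratinocytes, followed at 1.18. *Lor*, the main protein of the epidermal envelope, was at 1.15 and *Cdsn*, the adhesion protein of corneodesmosomes, at 1.08. *Evpl*, the envelope scaffold envoplakin, was the gene that was lower, at −0.19. *Sprr1b*, a relative of *Sprr3*, and *Lce1a1* were well above background in *Sox21* KO alone, at least 4.91-fold and 1.03-fold higher, and *Ivl*, the substrate involucrin, was measured on neither array. *Tgm1* and *Tgm3*, at 0.28 and −0.071, lay below the median of this list but above *Evpl*, and the difference between the enzymes and the list was not tested.

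The targets and partners of the filaggrin proteases were mixed. In the list of filaggrin family and processing genes, 7 of 14 were measured, with a median log2 ratio of 0.068. Of the 7, 5 were higher and 2 lower, beside 52.4% of all measured genes higher. The split was 4 and 3 with the percentile taken without control spots, beside 49.6% higher. *Spink5*, the inhibitor of the kallikreins that shed corneocytes, had the highest log2 ratio of the list at 2.03, with a normalized signal of 0.678 in wild-type and 2.77 in *Sox21* KO. *Flg*, the filaggrin gene itself, was well above background on the *Sox21* KO array alone and at least 5.18-fold higher there, as the ratio to the higher of its own wild-type value and the lowest value well above background. *Klk5* was well above background in *Sox21* KO alone, at least 1.45-fold higher. *Hal* was so in wild-type alone, at least 1.54-fold lower in *Sox21* KO. *Flg* and the other genes on 1 array alone passed through the array where they are brighter, and they were chosen for naming after their values were seen. The 2 lower genes of the list were *St14*, the membrane protease matriptase, at −0.58 and *Padi3*, a peptidylarginine deiminase, at −0.50.

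Of the other 5 lipoxygenase genes 2 were measured, both higher in *Sox21* KO and both dim, with a median log2 ratio of 0.72 that was 0.34 with the normal-exponential correction. *Alox12*, the platelet-type enzyme, had a log2 ratio of 0.87 and *Alox5*, of leukotriene synthesis, one of 0.57. *Alox12e*, an epidermal-type 12-lipoxygenase, was well above background in *Sox21* KO alone and at least 4.07-fold higher, from a normalized signal of 0.0207 to 0.324. *Alox8* and *Alox15* were measured on neither array. None of these 5 genes was measured on both arrays at 2-fold or more.

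Of the 6 other transglutaminase family genes 2 were measured. *Tgm2*, the tissue transglutaminase, had a log2 ratio of 0.11 on its brighter probe, and its lower probe gave −0.086. *F13a1*, the clotting factor subunit, was at 0.10. *Tgm4* and *Tgm6* were well above background in *Sox21* KO alone, with bounds of at least 1.04-fold and 1.26-fold, and *Tgm7* and *Epb42* were measured on neither array.

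Lipid synthesis and processing genes had medians near 0, where *Elovl4* and *Ugcg* lay as well. Of the 20 other acylceramide and barrier lipid genes, 14 were measured, 12 higher and 2 lower, with a median log2 ratio of 0.11 and 0 at 2-fold. Over all measured genes 52.4% were higher. The split was 10 and 4 with the normal-exponential correction, beside 49.8% of all genes higher. It was 13 and 1 with the 50th percentile as the divisor, beside 69.3%. Its ends were *Elovl7*, another fatty acid elongase, at 0.99, which passed 2-fold with the 50th percentile or quantile scaling, and *Pnpla1*, the transacylase that makes acylceramide, at −0.18. Of the 16 genes of glucosylceramide and sphingomyelin processing, 12 were measured, 4 higher and 8 lower, with a median of −0.039. The 50th percentile as the divisor turned this to 7 higher and 5 lower with a median of 0.057, beside 69.3% of all genes higher. *Sgms2*, a sphingomyelin synthase, stood highest at 0.50 and *Lipm*, an epidermal lipase, lowest at −0.66.

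**Figure D3:**
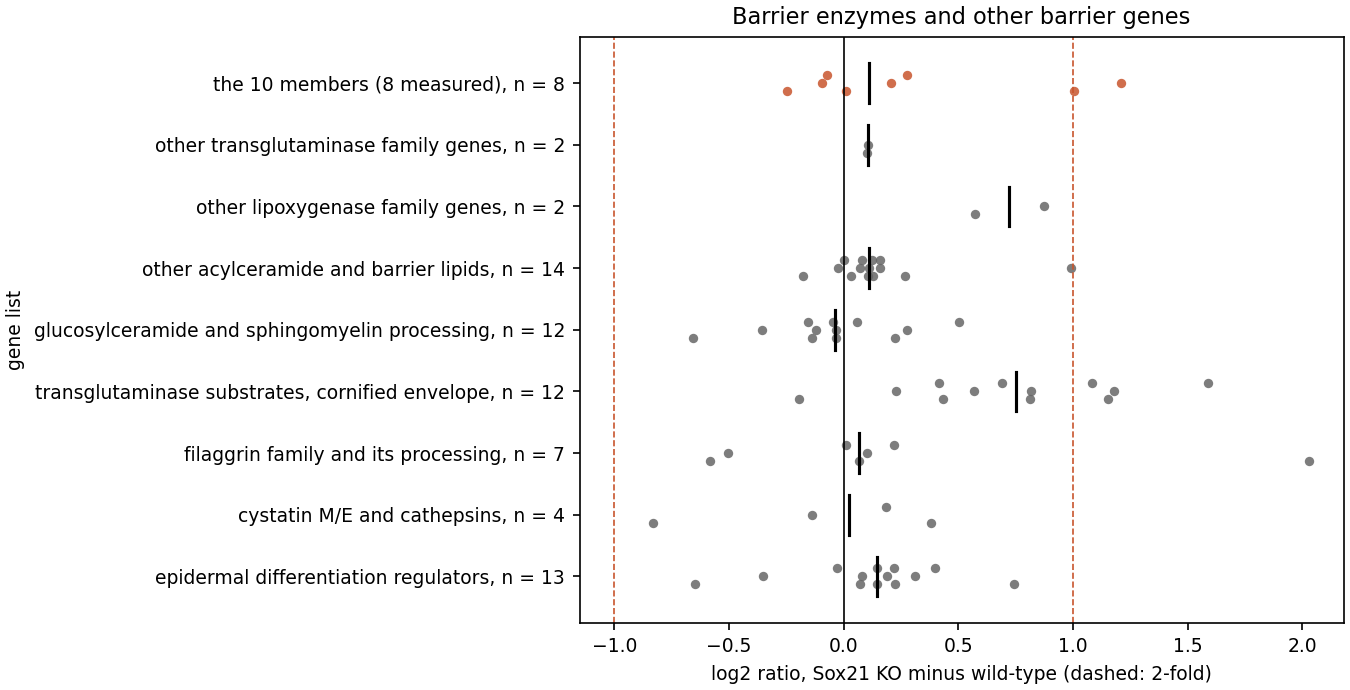
Log2 ratio, *Sox21* KO minus wild-type, of each measured gene of the 10 barrier genes (orange) and of 8 other lists (grey), with a black bar at the median of each list and dashed lines at 2-fold. The cornified envelope list has a median of 0.75 over 12 genes and the 2 other lipoxygenases one of 0.72, whereas the lipid lists centre on 0.11 and −0.039, the latter turning positive with the 50th percentile as the divisor.

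Markers of other tissues also differed between the arrays. Over all measured genes 52.4% were higher in *Sox21* KO, 0.739% at least 2-fold higher and 0.666% at least 2-fold lower. Some markers were already counted in the lists above. These were *Lor*, *Krtdap*, *Flg*, *Ivl* and *Lce1a1* of the skin markers, *Sprr3* of the oral mucosa markers, and *Tchh* and *Padi3* of the hair markers. All 9 ameloblast markers were measured, so RNA of enamel-forming cells was on both arrays. Whether ameloblasts or whole germs were taken is not shown by this. The 9 markers had a summed normalized signal of 3170 in wild-type and 2872 in *Sox21* KO, with 7 of 9 lower in *Sox21* KO. Their median log2 ratio was −0.62. *Slc24a4*, *Amtn* and *Klk4*, genes of enamel maturation, were at least 2-fold lower at −2.27, −1.89 and −1.05, beside 0.666% of all measured genes. The count at least 2-fold lower was 2 with the 50th percentile as the divisor, under which 63 of the 13804 genes passed. The 2 higher markers were *Odam*, at 0.63 on its brighter probe and 0.55 on the other, and *Amelx*, the brightest, at 0.078. Of the 10 markers of suprabasal and cornified skin, all 7 that were measured were higher in *Sox21* KO, beside 52.4% of all measured genes. At least 2-fold higher were 3 of them, beside 0.739%. The sum over all 10 went from 30.3 to 45.2. *Flg* and *Lce1a1* were well above background in *Sox21* KO alone and *Ivl* on neither array. Of 6 oral mucosa markers, the 3 measured were all higher, with a sum over the 6 of 13.8 in wild-type and 25.3 in *Sox21* KO. *Krt4* and *Krt78* were well above background in *Sox21* KO alone and *Krt76* on neither. Of 12 hair shaft and inner root sheath markers 8 were measured, 4 higher and 4 lower, and the sum over the 12 was 12.3 in wild-type and 10.66 in *Sox21* KO. At least 2-fold higher were 2 of the 8, *Krt32* with a log2 ratio of 2.40 and *Foxn1* with 1.13, beside 0.739% of all measured genes. The count was 1 with the normal-exponential correction, under which 46 of the 13804 genes passed. At least 2-fold lower were 0, beside 0.666%. *Krt71*, an inner root sheath keratin, was well above background in wild-type alone and at least 2.34-fold lower in *Sox21* KO, while another, *Krt27*, at −0.60, made up much of the sum. The 6 basal keratinocyte markers, 4 higher and 2 lower, summed to 675 and 796, a sum carried by *Krt5*, and *Krt15* was at least 2-fold higher at 1.70. *Aloxe3* and *Asprv1* were therefore higher on the same array as the cornified skin and oral mucosa markers. Their part in the levels of *Aloxe3* and *Asprv1* was not tested.

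Among markers of tissue away from the epithelium, 6 of the 7 genes of dental and jaw mesenchyme were higher, beside 52.4% of all measured genes. The 7 genes summed to 1545 in wild-type and 1735 in *Sox21* KO. Of 6 skeletal muscle markers 5 were measured, 1 higher (*Myh3*) and 4 lower, with sums of 58.0 and 40.4. The 5 neuronal markers, 2 higher and 3 lower, summed to 68.6 and 50.7, carried by *Snap25* and *Tubb3*. Of 6 markers of simple and outer enamel epithelium 4 were higher and 2 lower, with a median log2 ratio of 0.19, while their sum of 146 and 132 was carried by *Krt17*, lower at −0.22.

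Upstream sequence was searched for the letters ACAAT, the core that SOX proteins bind, on both strands of the 250 bases before each start site in RefSeq of assembly GRCm38.p6. Of the 10 genes 9 had an entry, all but *Aloxe3*, with 10 windows in all since *Tgm1* has 2. The letters were present in 2 of the 10 windows and in 27.7% of all 32851 windows. The matches belonged to *Tgm3* and *Casp14*, neither of which differed by 1.5-fold, and the 30 bases around each are given 5′ to 3′ on the strand of the gene with the match in capitals.
Tgm3, chr2:130012110-130012139, plus strand: ataaaacaaggaATTGTaagaacaaactat
Casp14, chr10:78718294-78718323, minus strand: agaaaacttgcagACAATaaaggtacagag
The *Tgm3* window ends 201 bases before the start site and the *Casp14* window ends at the base before it. The window of *Asprv1* held no match. TGANTCA, the AP-1 motif, was in 0 of the 10 windows and in 6.75% of all windows, and AACNNGTT, a motif of grainyhead-like factors, was in 0 of 10 and in 3.64%. Only ACAAT had matches in these windows, so no matches overlapped. A match describes the letters of the window alone.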

How the data were processed

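RNA of 1 incisor sample per genotype was measured, and the 2 arrays lay on the same slide. The authors deposited scanner files with a processed signal intensity per spot, background-subtracted by Feature Extraction 10.7.3.1, and a table of linear ratios that were these intensities divided by 1 number per array (268 and 276). The methods name GeneSpring, a percentile shift and a filter on low signals, and state neither the percentile nor the threshold.

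From the deposited intensities, log2 of the signal over the array's 75th percentile over all spots was taken, 267 spots marked as outliers were left out, repeat spots were averaged and the brightest measured probe stood for a gene. Gene symbols came from RefSeq of GRCm38.p6, by accession for 26294 of the 55681 probes present before outlier spots were left out, through a current symbol for 2049 and an older one for 355, while 26983 kept the name in the file. All genes named as barrier genes are given with every probe. From the other barrier lists, genes measured on both arrays and at least 2-fold apart are named, or the ends of the list. Genes on 1 array alone, some on neither and a few others such as *Padi3* are named as well, after their values were seen. Tissue markers are named where a sentence on the tissue needs them. The barrier genes and lists were chosen with earlier results of these data known. With 1 array per genotype no test was made. Alternatives covered the scaling, the background correction, the handling of outlier and dim spots, the probe of a gene and the fold threshold. Tools were limma 3.58.1 in R 4.3.3, and pandas 2.3.3 with numpy 2.4.6 under Python 3.11.15.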

Additional observations from a re-analysis of the deposited data

How the results depend on the processing

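*Asprv1* and *Aloxe3* kept their direction under the 5 other array settings. Keeping outlier-marked spots could not change them, since 0 spots of the barrier genes were so marked. The other percentile divisors add one constant to all log2 ratios, so they are weak checks of direction. A count within 1.5 times the reported one, or a log2 value within 0.0854, the SD between repeat spots, was taken as unmoved. Of the alternative values for the counts and medians over all barrier genes and over the 81 other barrier genes, 64 stayed and 12 moved, and of those for single probes and single lists 85 stayed and 29 moved. Both tallies hold values that keeping outlier-marked spots could not change. Dividing by the 50th percentile raised the median log2 ratio of all genes from 0.013 to 0.11, with 136 genes at least 2-fold higher and 63 lower in place of 102 and 92. Under it the median of the barrier genes was 0.20 with 1 gene lower, and that of the other barrier genes 0.21. Taking the percentile without control spots left 1 barrier gene at least 2-fold higher. Normal-exponential background correction left 0, with 3 of the other barrier genes and, over all genes, 46 higher and 40 lower. Without a filter on dim probes the barrier genes had a median of −0.030 with 5 lower, 13 other barrier genes were at least 2-fold higher and 1 lower, and 508 and 695 of all genes passed. At 1.5-fold, 10 other barrier genes were higher and 1 lower, and 442 and 412 of all genes. The causes were not tested. No paired analysis was possible because each genotype has 1 array. Signal over background limits *Tgm5* and *Abca12*, which had no ratio, and *Aloxe3* and *Alox12b*, whose signals were lowest among those measured.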

Other observations

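Of 15 regulators of epidermal differentiation, 13 were measured, 10 higher and 3 lower in *Sox21* KO, beside 52.4% of all measured genes higher. Their median log2 ratio was 0.15. At 2-fold there were 0, beside 0.739% higher and 0.666% lower over all measured genes. *Grhl3*, the grainyhead-like factor of barrier formation, stood highest at 0.74 and *Maf*, by its brighter probe, lowest at −0.65. The other *Maf* probe gave −0.13. *Trp63*, counted as higher at 0.22 on the brightest of its 4 measured probes, reached down to −0.68 on another. *Ovol1* and *Gata3* were measured on neither array. In the list of *Cst6*, which encodes cystatin M/E, and the cathepsin genes *Ctsl*, *Ctsd* and *Ctsh*, all 4 genes were measured, 2 higher and 2 lower. The median was 0.024. It was 0.12 with the 50th percentile as the divisor, 0.13 with the mean over probes and 0.25 with the dimmest probe. The 2 probes of *Ctsd* gave −0.14 and 0.31. The inhibitor gene *Cst6* was at −0.83, *Ctsl* at 0.19 and *Ctsh* at 0.38.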
